A study of Mus musculus with 65 samples.

Results

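The genes Mcm2, Mcm3, Mcm4, Mcm5, Mcm6 and Mcm7 encode the subunits of the MCM complex, the ring-shaped helicase that unwinds DNA at replication forks. They were chosen by name, as 6 of the 11971 genes in a table of read counts, and were measured in each of 65 single cells. The cells, labelled neural progenitor cells, were taken at E13.5 from the cortex of embryos of the C57BL/6J mouse strain. Embryonic brains were pooled after the ganglionic eminences had been removed, and living cells, those that excluded propidium iodide, were sorted one by one for full-length cDNA synthesis. All cells belong to 1 group, for which the labels give no treatment or mutation. In the titles the cells carry a set number, 1 for 31 cells, 2 for 13 and 3 for 21, whose meaning no label gives. Since no animal is named for any cell, the cells are not replicates, and the values below describe these 65 cells without p-values.

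The MCM ring holds a single copy of each of the 6 subunits. It is loaded onto replication origins in G1 by the origin recognition complex together with Cdc6 and Cdt1, a step called licensing. In S phase the loaded ring joins Cdc45 and the GINS complex to form the active CMG helicase. Mcm genes are known targets of E2F factors, which drive transcription at the entry into S phase. In the embryonic cortex the MCM proteins are known as markers of cells that are cycling or able to cycle, and they are lost from postmitotic neurons.

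Sequencing depth was uneven. The cells held a median of 14609426 reads in genes, with a range of 85338 to 32130629, and a median of 6276 genes with a read. The set medians were 14032041, 8127759 and 22483962 reads in title sets 1, 2 and 3, and 3 cells held fewer than 1000000 reads. Levels are given as CPM, reads scaled to a total of 1000000 reads in genes for each cell, and a cell is described as having a gene at 10 CPM or more. The label was checked against markers. Sox2, a transcription factor of apical progenitors, was at 10 CPM or more in 22 cells. Eomes, a transcription factor of intermediate progenitors, reached that level in 20 cells, and Neurod6, a gene of excitatory neurons, in 16. Other markers of the same cell types gave a wide range of counts. Apical progenitor markers were at 10 CPM or more in 3 cells for Hes5 up to 59 for Vim. Excitatory neuron markers reached that level in 4 cells each for Bhlhe22 and Rbfox3 up to 53 for the neuronal tubulin gene Tubb3. Transcripts of neurons were thus present beside those of progenitors in the sorted cells.

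Each Mcm gene was present in some cells at high levels and close to absent from many others. Mcm7 was the most widespread, at 10 CPM or more in 44 of 65 cells (67.7%, exact 95% interval 54.9 to 78.8, counting error only). The other members reached that level in fewer cells. Mcm5 was present in 27 cells (41.5%, 29.4 to 54.4), Mcm2 in 25 (38.5%, 26.7 to 51.4) and Mcm3 in 24 (36.9%, 25.3 to 49.8). Mcm4 was present in 22 cells (33.8%, 22.6 to 46.6) and Mcm6 in 20 (30.8%, 19.9 to 43.5). The intervals of these 5 genes overlap one another, and that of Mcm7 lies above all of them.

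Mcm2, whose protein binds histones at the fork, had its lowest, median and highest level at 0, 0.423 and 2166.9 CPM over all cells. Mcm3, whose protein in yeast contacts the origin recognition complex and Cdc6 during loading, had 0, 0.132 and 1866.1 CPM. Mcm5, which in yeast and fly forms with Mcm2 the gate of the ring, had 0, 6.59 and 2146.4 CPM. In the median cell Mcm2 and Mcm3 were thus nearly silent, while Mcm5 was at a low level under 10 CPM. Each of these genes was abundant in its highest cell. Mcm4, a main substrate of the Cdc7 kinase at origin firing, had 0, 0.521 and 1546.3 CPM. Mcm6, whose protein binds Cdt1, had 0, 0.177 and 1542.6 CPM. Mcm7, which with Mcm4 and Mcm6 makes up the subcomplex with helicase activity of its own, had 0, 87.2 and 2147.5 CPM, and was the single member with a median above 10 CPM.

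The mean level over the 65 cells was 164 ± 350 CPM for Mcm2, 161 ± 364 CPM for Mcm3 and 149 ± 335 CPM for Mcm4 (SD across cells). It was 188 ± 395 CPM for Mcm5, 132 ± 318 CPM for Mcm6 and 289 ± 459 CPM for Mcm7. The SD exceeded the mean for every member. Among the cells that had the gene, the median level was 389 CPM for Mcm2, 312 for Mcm3, 219 for Mcm4, 269 for Mcm5, 257 for Mcm6 and 241 for Mcm7.

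Few cells lay between presence and absence. Between 1 and 10 CPM there were 0 cells for Mcm3, 3 for Mcm6, 4 for Mcm2, 5 for Mcm7 and 7 for Mcm4, but 24 for Mcm5. Mcm5 also had a read in 61 of 65 cells, the most of any member, against 60 for Mcm7, 52 for Mcm3, 47 for Mcm4 and 44 each for Mcm2 and Mcm6. Many of these traces were small. In 24 of the 52 cells with a read of Mcm3, the gene had 1 to 3 reads in all.

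To compare members with each other, CPM was divided by the length of the principal GENCODE M21 transcript, which runs from 2910 bases for Mcm6 to 3589 bases for Mcm4. All exons annotated for Mcm6 cover 4375 bases, so its level per kilobase and its place in the order rest on this choice of transcript. The mean level per kilobase was 97.7 CPM per kb for Mcm7, 55.6 for Mcm5, 53.01 for Mcm3, 48.5 for Mcm2, 45.3 for Mcm6 and 41.4 for Mcm4. Neighbours in this order did not differ beyond their spread, since the SD across cells was 155 CPM per kb for Mcm7 and 93.3 to 120 CPM per kb for the others. Mcm7 reached 10 CPM per kb in 39 cells, against 20 to 24 cells for the other members.

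Mcm7 is also the single member whose exons overlap those of another gene in that annotation, where 321 of its 2962 exon bases are shared with Ap4m1 and 64 with Cops6, both on the opposite strand. The libraries did not keep strand, so reads there cannot be assigned with certainty. Ap4m1, a subunit gene of an adaptor complex, was at 10 CPM or more in 4 of the 44 cells with Mcm7 and in 2 of the 21 cells without it. Cops6, a subunit gene of the COP9 signalosome, was present in 33 of the 44 cells with Mcm7 and in 13 of the 21 without. Across the 65 cells the Spearman rho of Mcm7 was -0.0152 with Ap4m1 and 0.140 with Cops6.

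**Figure D1:**
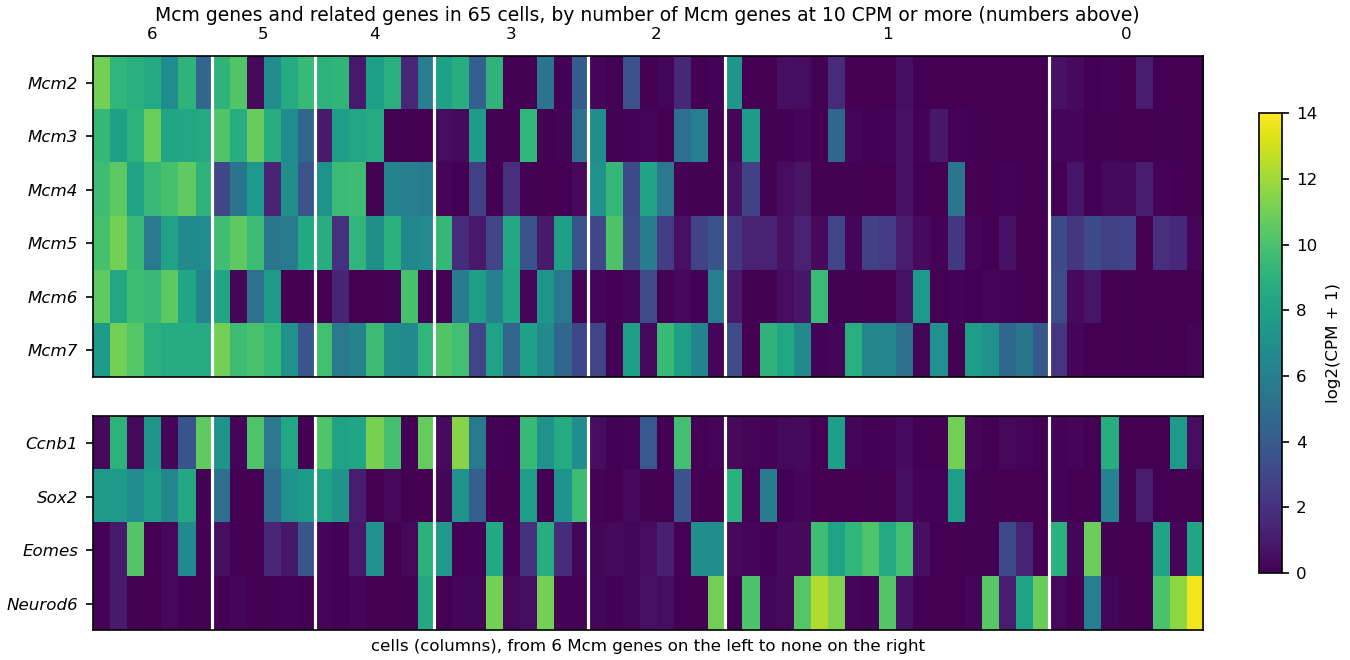
Levels of the 6 Mcm genes (upper panel) and of Ccnb1, Sox2, Eomes and Neurod6 (lower panel) as log2(CPM + 1), 1 column per cell, ordered by the number of Mcm genes at 10 CPM or more, which is written above each block. The 7 cells with all 6 genes are on the left and the 9 cells with none on the right, and 13 of the 19 cells with a single Mcm gene have Mcm7.

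The promoters of the Mcm genes are shown because E2F factors are known to act on them. Whether letters in these promoters bear on how the members vary together across cells was not tested. RefSeq promoter windows of 300 bases, 250 before the transcription start and 50 after it, were found for 5 of the 6 members, with 2 starts for Mcm7. These windows are in build GRCm38.p6, whereas the reads were counted on mm9. For 4 genes the bases before the start are printed 5′ to 3′ on the gene's strand, in lower case. Capitals mark E2F-type letters (TTTCCCGC, TTTCGCGC, TTTGCCGC or TTTGGCGC) and the CCAAT letters, each searched on both strands, so that GCGGGAAA and ATTGG are matches on the other strand. For Mcm3 and Mcm7, whose windows hold E2F-type letters after the start, short stretches around these matches follow.
Mcm2, chr6:88898781-88899030, minus strand: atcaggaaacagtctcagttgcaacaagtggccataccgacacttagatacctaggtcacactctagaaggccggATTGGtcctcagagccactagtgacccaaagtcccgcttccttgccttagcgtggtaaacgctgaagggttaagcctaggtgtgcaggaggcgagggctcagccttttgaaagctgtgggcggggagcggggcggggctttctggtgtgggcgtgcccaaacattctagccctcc
Mcm5, chr8:75109259-75109508, plus strand: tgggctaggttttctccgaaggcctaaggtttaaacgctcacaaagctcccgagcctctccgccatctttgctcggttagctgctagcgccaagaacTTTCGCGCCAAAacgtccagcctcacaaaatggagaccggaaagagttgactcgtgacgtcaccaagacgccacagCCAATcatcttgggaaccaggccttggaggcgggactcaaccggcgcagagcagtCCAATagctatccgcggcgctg
Mcm6, chr1:128359706-128359955, minus strand: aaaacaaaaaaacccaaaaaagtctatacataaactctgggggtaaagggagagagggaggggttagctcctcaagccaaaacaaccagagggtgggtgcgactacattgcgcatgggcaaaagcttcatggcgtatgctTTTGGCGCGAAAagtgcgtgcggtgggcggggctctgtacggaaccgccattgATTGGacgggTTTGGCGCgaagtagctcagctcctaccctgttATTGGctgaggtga
Mcm7, first start, chr5:138171884-138172133, minus strand: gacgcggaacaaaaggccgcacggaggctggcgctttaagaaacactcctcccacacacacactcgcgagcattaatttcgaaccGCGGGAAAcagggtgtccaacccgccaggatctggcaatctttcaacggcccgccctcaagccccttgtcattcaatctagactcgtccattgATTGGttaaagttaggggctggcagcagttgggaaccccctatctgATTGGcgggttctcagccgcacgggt
Mcm7, after the first start, chr5:138171852-138171875, minus strand: tgacgacgTTTCGCGCcaatttcg
Mcm3, after the start, chr1:20820278-20820301, minus strand: cttccgtgGCGGGAAAacttggga
Mcm3, after the start, chr1:20820263-20820282, minus strand: tgggaagtTTTGGCGCcaag

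E2F-type letters were found in the windows of 4 members, Mcm3, Mcm5, Mcm6 and Mcm7, and each of these windows held at least 2 matches. Of all 32851 RefSeq promoter windows of this length, 2.27% held such a match and 0.0974% held 2 or more. In Mcm5 and in Mcm6 a pair of matches on opposite strands overlap, so that TTTCGCGCCAAA and TTTGGCGCGAAA each count as 2. In Mcm5 that pair starts at base -153 from the transcription start, and in Mcm6 at base -110. The Mcm2 window and the window at the second start of Mcm7 held none of these letters. CCAAT letters were present in all 6 windows, against 37.4% of all windows. The E2F-type match after the first start of Mcm7 shares 1 base with a CCAAT match, which is left in lower case. These matches describe letters and not bound sites.

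The number of Mcm genes per cell ran over the whole range. No member was present in 9 cells, 1 in 19 cells, 2 in 8, 3 in 9, 4 in 7, 5 in 6 and all 6 in 7 cells (10.8%, 4.44 to 20.9). At least 4 of the 6 were present in 20 cells (30.8%, 19.9 to 43.5), and none or a single one in 28 cells (43.1%, 30.9 to 55.96). Of the 19 cells with a single Mcm gene, 13 had Mcm7, 2 each had Mcm3 and Mcm6, 1 each had Mcm2 and Mcm4, and 0 had Mcm5. Among the 6 cells with 5 members, Mcm6 was the missing one in 3, Mcm4 in 2 and Mcm2 in 1.

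The summed Mcm level rose with the number of members, an order that is largely built in because both come from the same 6 values. Summed over the 6 genes, the median was 4093.1 CPM in cells with all 6 (1502.8 to 6826.9), 1525.3 CPM in cells with 4 or 5, 358 CPM in cells with 2 or 3 and 134 CPM in cells with a single one. The 9 cells with none held 0.256 to 20.2 CPM. The 7 cells with all members carried 42.1% of the summed CPM of all 65 cells, and the 13 cells with 4 or 5 carried a further 37.1%. Median depth was 12019755 reads in cells with all 6, 19969962 in cells with 4 and 13615302 in cells with a single one. These medians pool title sets of unlike depth, and the part of depth was not tested.

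In the 7 cells with all members the read levels of the subunit genes were far from equal. The reads carry no molecular identifiers, so these values compare reads and not counted transcripts. The highest member exceeded the lowest by 5.90-fold to 45.99-fold per kilobase, with a median of 14.6-fold. Which member led differed from cell to cell. In title set 1, cell S14 had most Mcm3, at 616 CPM per kb, and least Mcm5, at 13.4. Cell S19 of that set had most Mcm7, at 709 CPM per kb, and least Mcm3, at 82.6, from only 982580 reads in all. Cell S20 of that set had most Mcm7, at 434 CPM per kb, and least Mcm4, at 73.5, the narrowest spread of the 7. In title set 2, cell S6 had most Mcm2, at 643 CPM per kb, and least Mcm7, at 67.2. Cell S19 of that set had most Mcm6, at 488 CPM per kb, and least Mcm2, at 33.3. Cell S25 of that set had most Mcm4, at 431 CPM per kb, and least Mcm5, at 29.4. In title set 3, cell S20 had most Mcm4, at 147 CPM per kb, and least Mcm2, at 6.90. In all, 5 different genes were the highest and 5 the lowest, and Mcm7, the gene present in most cells, was the lowest member in 1 of these cells.

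The title sets differed in how many members their cells held. At least 4 Mcm genes were present in 15 of the 31 set 1 cells (48.4%, 30.2 to 66.9), 4 of the 13 set 2 cells (30.8%, 9.09 to 61.4) and 1 of the 21 set 3 cells (4.76%, 0.120 to 23.8). Set 3 had the highest median depth of the 3, and the part of depth was not tested. All 6 were present in 3, 3 and 1 cells of the sets. Mcm2 showed the widest gap, at 15 of 31 set 1 cells, 7 of 13 set 2 cells and 3 of 21 set 3 cells. Mcm3, in contrast, was present in 12 of 31, 5 of 13 and 7 of 21 cells. Whether the sets are batches, sorts or embryos is not given, and their part in the relations below was not tested beyond the values within each set.

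**Figure D2:**
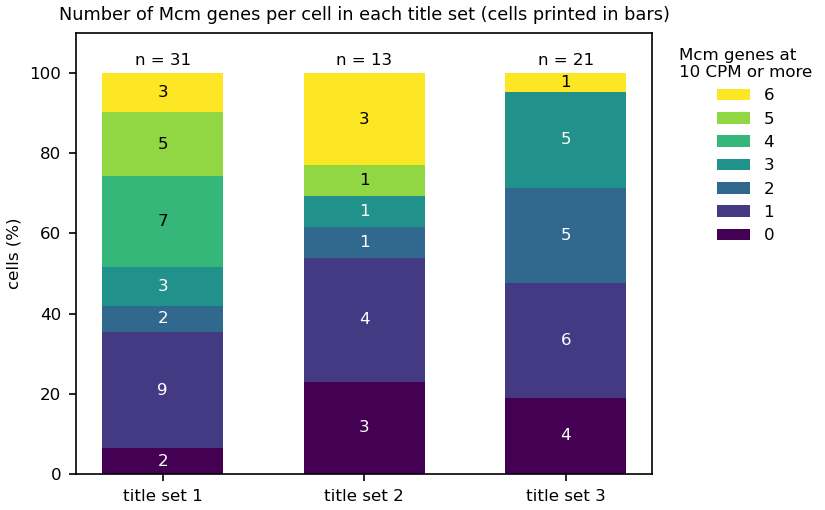
Percent of cells (vertical axis) of each title set with 0 to 6 Mcm genes at 10 CPM or more, with the number of cells printed in each block. Cells with 4 or more Mcm genes number 15 of 31 for set 1, 4 of 13 for set 2 and 1 of 21 for set 3.

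All 15 pairs of Mcm genes were positively correlated across the 65 cells. The Spearman rho of log2(CPM + 1) ranged from 0.264 for Mcm4 with Mcm6 to 0.625 for Mcm4 with Mcm5, with a median of 0.436, and the median Pearson r was 0.408. Points share their library and its depth, so these values are descriptions. The median rho was 0.546, 0.519 and 0.250 within title sets 1, 2 and 3. Of the 15 pairs, 14 were positive in each set, and the exception was Mcm4 with Mcm7, at -0.337 in set 3. The share of positive pairs among other genes was not tested, so these counts have no direct background. Against the mean log2(CPM + 1) of the Mcm genes, 64.1% of 8371 other genes had a positive rho, and 23.3% had one in each set.

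Mcm2, Mcm3, Mcm4 and Mcm5 were the most tightly linked, with rho of 0.503 to 0.625 over their 6 pairs. Mcm4 and Mcm5 were both present in 18 cells, which is 81.8% of the cells with Mcm4 and 66.7% of those with Mcm5. Mcm6 stood at the other end. Its 5 pairs had a median rho of 0.274, and it shared only 9 cells with Mcm4, 40.9% of the cells with Mcm4 and 45% of those with Mcm6. Mcm4, Mcm6 and Mcm7, whose proteins form a subcomplex, had rho of 0.264 to 0.278 among themselves over all cells. Within the sets these 3 pairs had medians of 0.199, 0.519 and 0.238, and Mcm4 with Mcm7 had 0.476 in set 1, 0.570 in set 2 and -0.337 in set 3. Mcm7 was present in 22 of the 25 cells with Mcm2, 23 of the 27 with Mcm5 and 16 of the 20 with Mcm6, while each of those genes was present in 36.4% to 52.3% of the cells with Mcm7.

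Set against the mean log2(CPM + 1) of the other 5 members, rho was 0.677 for Mcm2, 0.642 for Mcm5, 0.584 for Mcm3, 0.579 for Mcm4, 0.458 for Mcm7 and 0.359 for Mcm6. Within title set 3 it was 0.0299 for Mcm7 and 0.131 for Mcm4, but 0.488 for Mcm6, the highest of the 3 sets for that gene. A rho of 0.4 or more was reached with all 5 other members by Mcm2, against 3.26% of the 8376 other genes with a mean of 10 CPM or more. It was reached with 4 by Mcm3 (2.02% of other genes), with 3 each by Mcm4 (1.47%) and Mcm5 (1.76%), with 2 by Mcm7 (0.848%) and with 1 by Mcm6 (0.358%).

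**Figure D3:**
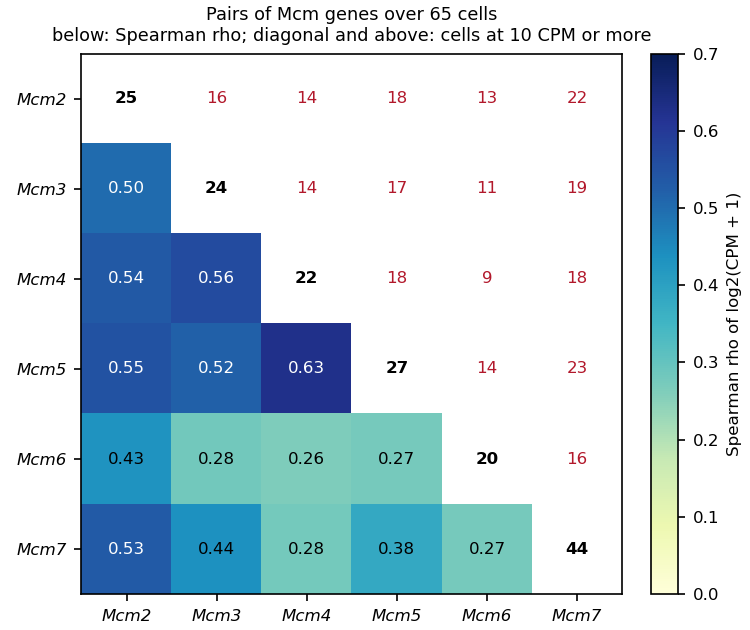
Pairs of Mcm genes over 65 cells. Coloured squares give the Spearman rho of log2(CPM + 1), the diagonal gives the cells with each gene at 10 CPM or more, and red numbers give the cells with both genes, from 9 for Mcm4 with Mcm6 to 23 for Mcm5 with Mcm7.

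Ccnb1, the cyclin gene of G2 and mitosis, was at 10 CPM or more in 26 cells, and the Mcm genes were present more often in those cells. At least 4 Mcm genes were present in 14 of the 26 cells with Ccnb1 (53.8%, 33.4 to 73.4) and in 6 of the 39 without it (15.4%, 5.86 to 30.5). All 6 were present in 4 of 26 cells with Ccnb1 (15.4%, 4.36 to 34.9) and in 3 of 39 without (7.69%, 1.61 to 20.9), and these intervals overlap. Ccnb1 was therefore absent from 3 of the 7 cells with a complete set. The gap was widest in title set 1, with at least 4 in 12 of 15 cells with Ccnb1 and in 3 of 16 without. In set 2 the counts were 1 of 2 with Ccnb1 and 3 of 11 without, and in set 3 they were 1 of 9 with and 0 of 12 without. Cells with Ccnb1 were also deeper, with a median of 20132231.5 reads against 12760524 in cells without, and the part of depth was not tested.

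By gene, Mcm2 was present in 16 of 26 cells with Ccnb1 and 9 of 39 without, and Mcm3 in 16 with and 8 without. Mcm5 was present in 17 cells with Ccnb1 and 10 without, Mcm4 in 13 with and 9 without, Mcm6 in 11 with and 9 without, and Mcm7 in 19 with and 25 without. The share was larger in cells with Ccnb1 for 6 of 6 members, as it was for 68.7% of the other genes tested. For every member the levels in cells with and without Ccnb1 overlapped, down to at most 1 CPM in the lowest cell of each class. Mean levels were less uniform than shares. Mcm3 averaged 313 ± 513 CPM in cells with Ccnb1 and 59.05 ± 152 CPM in cells without (SD across 26 and 39 cells), a fold of 5.23 on means plus 1 CPM. Mcm4 averaged 255 ± 437 CPM in cells with Ccnb1 and 77.6 ± 224 CPM in cells without (3.26-fold), and Mcm7 434 ± 591 CPM in cells with Ccnb1 and 193 ± 317 CPM in cells without (2.25-fold). Mcm6 ran the other way, at 95.2 ± 168 CPM in cells with Ccnb1 and 156 ± 387 CPM without (0.611-fold). Thus 3 of 6 members were at least 2-fold higher on the mean, against 19.6% of other genes. The share of other genes was taken at this main setting alone. With TMM scaling the count of members was 2. It was 1 with cells thinned to 1000000 reads, where Mcm3 alone remained past 2-fold at 4.76. Thinning left out the 3 cells below that depth and set the classes anew, at 23 cells with Ccnb1 and 39 without. Within title set 3 some members ran the other way, with folds of 0.258 for Mcm2, 0.280 for Mcm5 and 0.516 for Mcm7, and in set 2, with 2 cells that had Ccnb1, the fold of Mcm5 was 0.375.

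Cells with Sox2 held more Mcm genes and more Mcm transcript than cells without it. At least 4 Mcm genes were present in 12 of the 22 cells with Sox2 (54.5%, 32.2 to 75.6) and in 8 of the 43 without it (18.6%, 8.39 to 33.4). All 6 were present in 6 of 22 cells with Sox2 (27.3%, 10.7 to 50.2) and in 1 of 43 without (2.33%, 0.0589 to 12.3). The summed level had a median of 1245.1 CPM in cells with Sox2 and 214 CPM in cells without. Median depth was 16551627 reads in cells with Sox2 and 13875365 in cells without.

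Mcm2 was present in 16 of 22 cells with Sox2 and 9 of 43 without, and averaged 354 ± 478 CPM in cells with Sox2 and 66.1 ± 210 CPM in cells without, a fold of 5.29. Mcm3 was present in 15 of 22 cells with Sox2 and 9 of 43 without, and Mcm5 in 14 with and 13 without. Mcm4 was present in 11 cells with Sox2 and 11 without, Mcm6 in 11 with and 9 without, and Mcm7 in 17 with and 27 without. The share was larger in cells with Sox2 for 6 of 6 members, against 58.6% of other genes. The fold of mean levels was 4.56 for Mcm4, 4.43 for Mcm6, 3.56 for Mcm3, 2.56 for Mcm7 and 2.04 for Mcm5. All 6 members were thus at least 2-fold higher, against 19% of other genes. Without the 3 cells under 1000000 reads the fold of Mcm5 was 1.31, and the highest Mcm5 level of all was in a shallow cell, S19 of title set 1. With TMM scaling the Mcm5 fold was 1.61 and that of the other 5 members was 2 or more.

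The counts for Sox2 differed between the title sets. At least 4 Mcm genes were present in 8 of 9 cells with Sox2 and 7 of 22 without in set 1, and in 4 of 6 with and 0 of 7 without in set 2, but in 0 of 7 with and 1 of 14 without in set 3. The folds of mean levels in set 3 ran from 0.0699 for Mcm4 to 2.21 for Mcm3, with a median of 0.604. The single complete cell of set 3, S20, had 23.3 CPM of Mcm2 and no Sox2 at 10 CPM. Title sets hold 6 to 22 cells in each of these classes, and the difference between sets was not tested.

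Ccnb1 and Sox2 overlapped in 16 cells, so their relations to the Mcm genes are not separate. Those 16 cells had a median of 3.5 members. The 10 cells with Ccnb1 and no Sox2 had a median of 4, and the 6 cells with Sox2 and no Ccnb1 a median of 5.5, with 3 complete cells among the 6. The 33 cells with neither had a median of 1 member. Of these 33 cells, 2 held 4 or more, 22 held none or a single one, and none held all 6.

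The shares of cells with Mcm genes overlapped between cells with and without Eomes. At least 4 members were present in 5 of the 20 cells with Eomes (25%, 8.66 to 49.1) and in 15 of the 45 without it (33.3%, 20 to 48.95). All 6 were present in 2 of 20 with Eomes (10%, 1.24 to 31.7) and 5 of 45 without (11.1%, 3.71 to 24.1). Mcm2 was present in 8 of 20 cells with Eomes and 17 of 45 without, and Mcm7 in 13 of 20 with and 31 of 45 without. Mcm4 showed the widest difference, at 4 of 20 cells with Eomes (20%, 5.73 to 43.7) and 18 of 45 without (40%, 25.7 to 55.7), with overlapping intervals. The share was larger in cells with Eomes for 1 of 6 members, against 47.8% of other genes. Mean levels were at least 2-fold lower for 2 members, Mcm3 (0.348-fold) and Mcm5 (0.475-fold), where 26.1% of other genes were. With TMM scaling that count of members was 1, and within title set 1 it was 4, where the share of other genes was not taken.

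The Eomes cells were not alike. Some of them also had Neurod6 at 10 CPM or more, such as cell S13 of title set 1, with 850.4 CPM of Eomes and 5172.7 CPM of Neurod6. Others did not, such as cell S28 of title set 3, with 1109.9 CPM of Eomes and 0.108 CPM of Neurod6. The class with Eomes thus mixes cells with and without this gene of excitatory neurons, and Mcm genes were not counted apart in them. The 3 cells that had both Eomes and Sox2 held 5, 6 and 6 Mcm genes. The 17 cells with Eomes and no Sox2 held a median of 1 member and at most 4. The shallowest cell of the study, at 85338 reads, is 1 of those 3. Its Eomes, Mcm4 and Mcm7 levels of 11.7 CPM are 1 read each and its Mcm3 level of 23.4 CPM is 2 reads, while Mcm2 had 61 reads and Mcm5 had 31. Without the 3 cells under 1000000 reads, at least 4 members were present in 4 of 19 cells with Eomes and 14 of 43 without.

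Cells with Neurod6 lay at the low end. None of the 16 cells with Neurod6 had all 6 members (exact upper limit 20.6%), against 7 of 49 without it (14.3%, 5.94 to 27.2). At least 4 members were present in 1 of 16 cells with Neurod6 and in 19 of 49 without. All 6 members had mean levels at least 2-fold lower in cells with Neurod6, against 32.2% of other genes, with folds of 0.0245 for Mcm4 to 0.420 for Mcm6. Mcm4 averaged 3.82 ± 13.7 CPM in cells with Neurod6 and 196 ± 374 CPM in cells without, and Mcm6 64.2 ± 184 CPM in cells with Neurod6 and 154 ± 349 CPM in cells without. The share of cells was larger with Neurod6 for 0 of 6 members, against 50.5% of other genes. Mcm7 was still present in 8 of the 16 cells with Neurod6, and Mcm6 in 4.

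**Figure D4:**
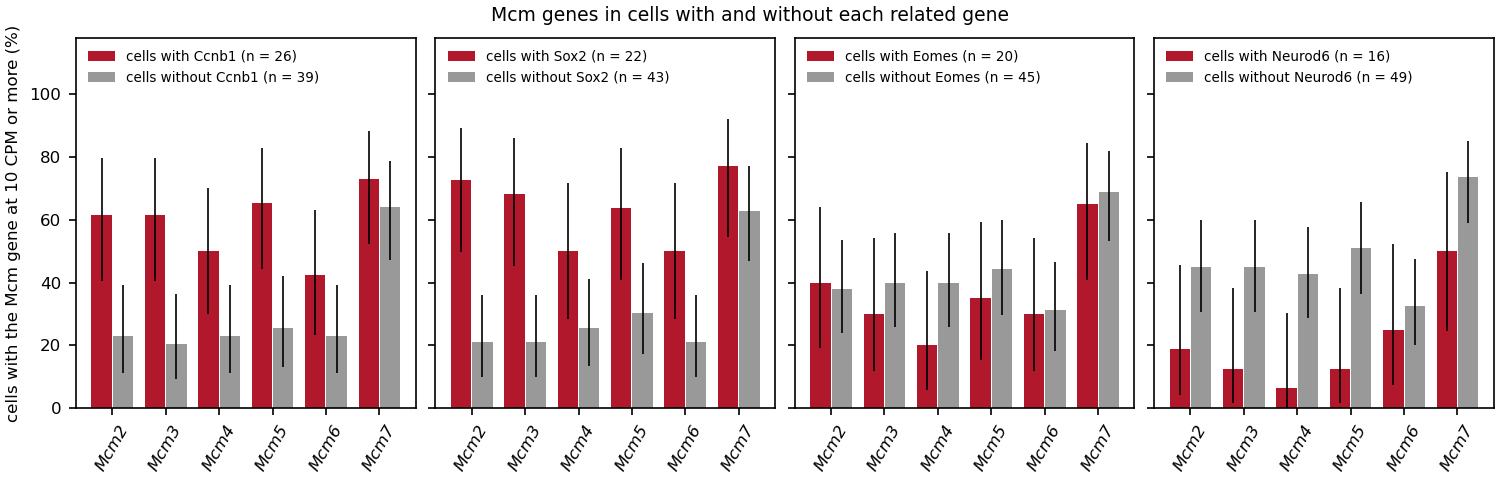
Percent of cells with each Mcm gene at 10 CPM or more, in cells with (red) and without (grey) Ccnb1, Sox2, Eomes or Neurod6. Bars are shares of cells and lines are exact 95% intervals for counting error. Red bars exceed grey ones for 6 of 6 genes with Ccnb1 and with Sox2, for 1 of 6 with Eomes and for 0 of 6 with Neurod6. Among other genes the share was larger in cells with Ccnb1 for 68.7%, with Sox2 for 58.6%, with Eomes for 47.8% and with Neurod6 for 50.5%.

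The mean Mcm level, taken as the mean log2(CPM + 1) of the 6 genes, was set against Ccnb1, Sox2, Eomes and Neurod6 without a threshold. Its rho was 0.426 with Ccnb1 and 0.426 with Sox2 over the 65 cells, -0.0449 with Eomes and -0.331 with Neurod6. Within title sets 1, 2 and 3 it was 0.554, 0.193 and 0.272 with Ccnb1, and 0.563, 0.569 and 0.202 with Sox2. With Eomes it was -0.102, -0.0769 and -0.00520, and with Neurod6 -0.487, -0.130 and -0.292. Within set 3 the Pearson r of the mean Mcm level was -0.0423 with Sox2, against a rho of 0.202, and 0.213 with Ccnb1. The folds of mean levels with Sox2 in that set had a median of 0.604, so the measures differed in direction there. The rho of the mean Mcm level with total reads was 0.130 over all cells, and 0.460, 0.396 and 0.109 within the sets. With the number of genes with a read it was 0.145 over all cells, and 0.51, 0.0385 and -0.166 within the sets.

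Of the 8371 other genes with a mean of 10 CPM or more, the 10 whose level was most like the mean Mcm level, with a positive rho in each title set, were led by Rrm2, a ribonucleotide reductase subunit gene (rho 0.734). The PCNA-associated factor gene 2810417H13Rik, now named Pclaf, followed at 0.676, and the serine synthesis gene Phgdh at 0.667. Hn1l, now Jpt2, had 0.664, the histone chaperone gene Nasp 0.657 and Dut, which removes dUTP, 0.634. Ran, a nuclear transport GTPase gene, had 0.627, the centromere gene Cenpm 0.621, the second reductase subunit gene Rrm1 0.620 and the chromatin remodeller gene Hells 0.614. Of these 10 genes, 5 were also among the 10 highest by Pearson r.

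Single members had different nearest genes, when the other members were left out of the ranking. Mcm2 was nearest to Dut (0.725), Rrm1 (0.677) and Rrm2 (0.674). Mcm3 was nearest to the Cdt1-degrading ligase gene Dtl (0.670), to Rif1 (0.663), a regulator of replication timing, and to the clamp loader gene Rfc1 (0.640). Mcm4 was nearest to the Wnt antagonist gene Sfrp1 (0.615), to the E2F partner gene Tfdp1 (0.576) and to Phgdh (0.566). Genes near Mcm5 included Rrm2 (0.612) and the exosome gene Exosc2 (0.587). Mcm7 was nearest to Etfa (0.589), the PCNA unloader gene Atad5 (0.549) and Rrm2 (0.531). Mcm6 had the least close neighbours, the RNA export gene Rae1 (0.552), the Mediator subunit gene Med21 (0.504) and Dnaaf2 (0.499), none of which is a replication factor in the lists used here.

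Genes that work with the MCM ring in replication were described as lists, by their rho with the mean Mcm level. Over all 8371 genes 64.1% had a positive rho, 23.3% were positive in each title set, and the median was 0.0635. Of the 10 origin licensing genes all had a positive rho, 7 of them in each set, with a median of 0.387. Cdt1, the loading factor, had 0.509, its inhibitor Gmnn 0.505 and Cdc6 0.458. The origin recognition complex was spread widely, from Orc6 at 0.390 to Orc5 at 0.0803 and Orc3 at 0.0560. Cdt1 and Cdc6 were themselves present in only 6 and 10 cells.

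Genes of helicase activation and CMG partners were positive in 13 of 13 cases and in each set in 12, with a median of 0.384. Ticrr, which helps load Cdc45, had 0.552, Mcm10 0.510, Topbp1 0.501 and Tipin, of the fork protection complex, 0.467. Wdhd1 at 0.255 and Gins1 at 0.150 were lowest. Replicative polymerase and primase genes were positive in 11 of 11 cases and in each set in 9 (median 0.413), from the polymerase epsilon subunit gene Pole2 at 0.593 to the polymerase delta subunit gene Pold2 at 0.0550. Clamp, clamp loader and fork genes were positive in 11 of 11 cases and in each set in 10 (median 0.464), led by the sliding clamp gene Pcna at 0.588, the flap nuclease gene Fen1 at 0.581 and the ligase gene Lig1 at 0.572, with Rfc4 at 0.193 and Rpa3 at 0.103 lowest.

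Nucleotide supply genes were positive in 7 of 7 cases (median 0.439) but in each set in only 4. Dctpp1 and Tk1 each turned negative in 1 set. Chromatin replication genes were positive in each set in 7 of 7 cases, with the highest median of any list, 0.482, and with Hells at 0.614 and Uhrf1, which guides maintenance methylation, at 0.563. Mcm8, a related helicase gene outside the ring, had 0.328.

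The list of G1/S control genes was mixed. Of 19 genes, 16 had a positive rho and 11 were positive in each set, with a median of 0.229. Cdk2 had 0.540, and the cyclin genes Ccnd1, Ccnd2 and Ccnd3 had 0.530, 0.485 and 0.402. The cell cycle inhibitor gene Cdkn1c had -0.153 and E2f6 -0.168. The G2/M list, which holds Ccnb1, was positive in 20 of 20 cases but in each set in 10, with a median of 0.308, from Top2a at 0.543 and Ccna2 at 0.455 to Tpx2 at 0.147 and Cdk1 at 0.0910. Housekeeping genes, chosen as genes with no special link to replication, had a median of 0.215 with 9 of 12 positive and 4 positive in each set, from the glycolytic gene Pgk1 at 0.442 to Actb at -0.282.

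Markers of apical progenitors were positive in 9 of 9 cases but in each set in 6 (median 0.298), from Notch1 at 0.554 and Sox2 at 0.426 to Fabp7 at 0.165 and Slc1a3, close to 0, at 0.000833. Markers of intermediate progenitors divided, with 3 of 6 positive, 1 of them in each set, and with the antiproliferative gene Btg2 at 0.377 and Gadd45g at 0.227 but Neurod1 at -0.310 and Mfap4 at -0.320. Markers of excitatory neurons were negative in 8 of 8 cases, with a median of -0.383 and Stmn2 at -0.645 and Dcx at -0.589 lowest. Their summed level ran from 0.906 to 11594.3 CPM (median 574) in the 20 cells with 4 or more Mcm genes, and from 242 to 25077.1 CPM (median 7741.5) in the 28 cells with none or a single one, so the ranges overlap. Erythroid markers had a summed median of 93.2 CPM in the cells with 4 or more members and 427 CPM in those with none or a single one, and their part was not tested. Of these globin and red cell genes, Hbb-y was at 10 CPM or more in 44 cells and Alas2 in 4. Interneuron markers had summed medians of 1.65 CPM in cells with 4 or more members and 2.08 CPM in cells with none or a single one. Some cells of each class had much more, up to 1753.4 CPM with 4 or more members, 2312.8 with 2 or 3 and 2348.3 with none or a single one. Such a marker was at 10 CPM or more in 5, 3 and 7 cells of these classes. Of the 5 interneuron markers ranked, 2 had a positive rho with the mean Mcm level. The 5 measured microglia markers reached a summed level of at most 93.7 CPM in cells with 4 or more members, 5.05 CPM in cells with 2 or 3 and 15.2 CPM in cells with none or a single one. Of the 8 genes of the endothelial and mural list only 3 were measured, Col1a1, Col3a1 and Pdgfrb. The endothelial genes Pecam1, Cdh5, Kdr and Cldn5 were not, so endothelial transcripts were not checked. The 3 measured genes reached a summed level of at most 0.0787 CPM in cells with 4 or more members and 51.2 CPM in cells with none or a single one. In the 17 cells with 2 or 3 members they reached 4822.2 CPM, and 4 of these cells had such a marker at 10 CPM or more. Of the list genes with a mean of 10 CPM or more, 1 of 3 erythroid genes and 1 of the 2 collagen genes had a positive rho.

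**Figure D5:**
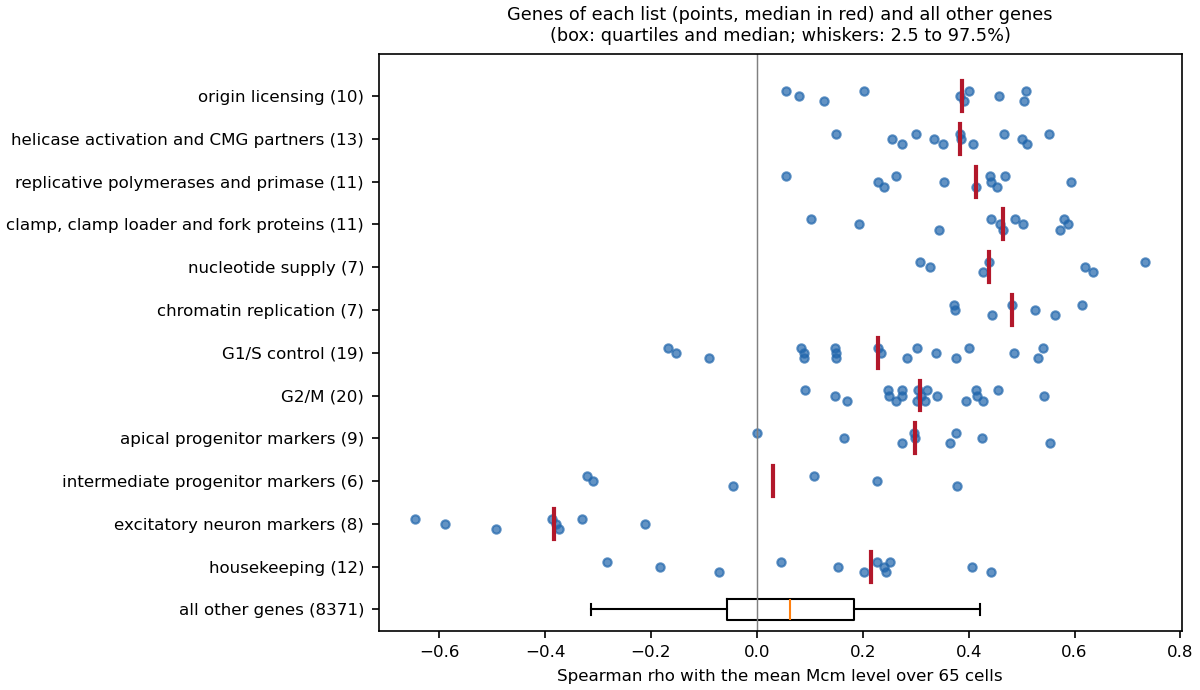
Spearman rho over 65 cells between the mean Mcm level and each gene of the lists (points), with the list's median in red and the number of genes with a mean of 10 CPM or more in brackets. The box at the bottom gives the 8371 other genes. Replication lists have medians of 0.384 to 0.482, and excitatory neuron markers -0.383.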

How the data were processed

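The authors deposited raw counts, whole-number reads per gene, for 65 single cells made with a SMARTer full-length kit, per the labels' protocols. Per the submitters' processing notes, TopHat2, HTSeq and the mouse build mm9 were used; versions, roles and the annotation used for counting are not given in the sources used here. Reads carry no molecular identifiers or strand, so intervals cover counting error only.

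Counts were scaled to CPM by each cell's total and logged as log2(CPM + 1). A gene at 10 CPM or more counted as present. Genes with a mean of 10 CPM or more were ranked by Spearman rho (scipy 1.17.1, Python 3.11.15), a step tested on simulated data. Folds divide class means plus 1 CPM. TMM (edgeR 4.0.16) and scran 1.30.0 scaling, thinning to 1000000 reads, other thresholds and leaving out title sets were alternatives. No cells were identical, none was left out, and no test was run because cells of pooled embryos are not replicates.

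The text names the members, Ccnb1, Sox2, Eomes, Neurod6, the 10 most similar genes, the 3 nearest to each member and, of each list, up to 4 highest and 2 lowest genes. Orc6, Ccnd3, Mcm8, Ap4m1, Cops6, Hes5, Rbfox3 and genes singled out for a sign change were named after their values were seen. A few genes that this rule would name are not reported here. Members and lists were chosen with earlier results of these data known. Promoter and transcript tables are RefSeq and GENCODE M21 on GRCm38, used for letters, lengths and overlaps only.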

Additional observations from a re-analysis of the deposited data

How the results depend on the processing

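Of 111 alternative values, 91 were called the same and 20 moved. Percentages of cells were judged by the counting interval of the main value, and rho by the SD over title sets. Counts of members past 2-fold were judged by their ratio to the main count, and lists of 10 genes by the number shared, with no spread behind either. Counting a gene as present from 1 read on, all 6 Mcm genes were present in 41.5% of cells and none in 0%, and all 6 in 49.1%, 52.6% and 40.7% of cells with Ccnb1, Sox2 and Eomes. The rho of the mean Mcm level with Eomes was -0.0957 without the 3 shallow cells, -0.237 on thinned reads, -0.145 as Pearson r with either pseudocount and, with its sign changed, 0.00122 without title set 1. The rho with Ccnb1 was 0.209 without title set 1. Members at least 2-fold higher with Ccnb1 numbered 1 on thinned reads, 5 within title set 1 and 1 within set 3, and with Sox2 1 within set 3. Members at least 2-fold lower with Eomes numbered 1 without shallow cells, on thinned reads, with TMM scaling and within set 2, and 4 within set 1. The share of other genes past 2-fold was taken at the main setting alone, so these counts of members have no background. The counts by class and within sets were added after seeing the data, and the cause of these changes was not tested. No paired analysis was possible because all cells form 1 group. In cells under 1000000 reads, 10 CPM can rest on fewer than 10 reads, so presence there is uncertain.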
